A study of Mus musculus with 33 samples.

Results

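The transcripts described here come from 39 mouse genes that copy DNA or start its copying, a module of DNA replication and G1-S genes. They were chosen by gene symbol from their known roles, at a time when earlier results of these data were known, and were followed through 33 bulk RNA-seq libraries from 8 colon organoid lines. Each of the 39 symbols matched 1 of the 32285 gene identifiers counted. All 39 passed the filter on low values (3 or more libraries with 1 CPM or more, where CPM is the count divided by the size of its library), as did 13606 genes in all. The lines were in vivo AKP (6 libraries), mini-colon AKP #i, #ii, #iii, #iv and #v (3 each), organoid AKP (6) and control (6). The alleles recombined in the AKP lines included Apc fl/fl and Trp53 fl/fl, through which Apc and Trp53 are lost. In vivo AKP organoids were grown from colon tumours of tamoxifen-treated mice in which Cdx2-creERT2, active in the caudal gut epithelium, recombined these alleles. In organoid AKP and mini-colon AKP a blue-light-driven Cre recombined them, either in conventional organoids or in mini-colons, which are tube-shaped colon tissues grown on a chip. Each mini-colon line came from mini-colons enriched in lumen-derived (#i and #ii) or crypt-derived (#iii, #iv and #v) tumours. Controls were organoids with the same alleles that had not been induced. All lines were kept in basal medium without growth factors before RNA was taken. The study describes its bulk RNA-seq as made from independent sets of samples, while the labels name no cultures.

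A cell that leaves G1 must first make its origins ready. The origin recognition complex, Cdc6 and Cdt1 load the ring-shaped MCM helicase on DNA, and Cdc45 and the GINS complex then switch the helicase on. Primase, DNA polymerases, the PCNA clamp and its RFC loader copy both strands, Fen1 and Lig1 join the Okazaki fragments, and ribonucleotide reductase, thymidylate synthase and thymidine kinase supply nucleotides. D-type cyclins with CDK4 and CDK6, and then E-type cyclins with CDK2, phosphorylate the retinoblastoma protein and release E2F factors, which switch on many of these genes. In the colon the genes are active in the dividing cells of the lower crypt and are switched off as cells differentiate.

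E2F factors are the shared regulators of the module, so the promoter windows with a match of the E2F motif are shown for 5 members from the helicase, licensing and polymerase roles. Promoter sequences (RefSeq, GRCm38.p6, each 300 bases long) were found for 30 of the 39 genes. The motif was searched as TTTCCCGC, TTTGGCGC, TTTGCCGC or TTTCGCGC on both strands, and matches may overlap. It was found in 13 of the 30 promoters (43.3%), against 704 of 27025 promoters of all genes (2.60%) and 482 of 10364 of the tested genes (4.65%). Capitals mark the matches, and each window is written in the direction of its gene.
Mcm5, chr8:75109312-75109411, plus strand: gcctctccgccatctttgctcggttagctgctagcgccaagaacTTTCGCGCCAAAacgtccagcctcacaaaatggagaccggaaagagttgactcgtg
Mcm6, chr1:128359731-128359830, minus strand: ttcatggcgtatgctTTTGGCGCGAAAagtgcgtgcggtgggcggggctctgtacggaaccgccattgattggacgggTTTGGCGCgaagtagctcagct
Cdc6, chr11:98907967-98908066, plus strand: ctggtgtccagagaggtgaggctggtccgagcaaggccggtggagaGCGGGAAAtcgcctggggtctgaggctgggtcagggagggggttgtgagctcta
Orc1, chr4:108579381-108579480, plus strand: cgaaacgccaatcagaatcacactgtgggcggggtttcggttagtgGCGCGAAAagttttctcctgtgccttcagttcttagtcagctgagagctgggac
Pola1, chrX:93632240-93632339, minus strand: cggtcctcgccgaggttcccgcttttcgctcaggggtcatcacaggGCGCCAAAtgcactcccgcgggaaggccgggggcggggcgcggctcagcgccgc
Mcm5 and Mcm6 each held overlapping matches that read the motif on opposite strands. The CCAAT box was present in 60% of the members' promoters, against 41.1% of all promoters and 43.3% of those of tested genes, and the letters TTTGAA of the cell cycle homology region in 16.7%, against 20.2% and 14.7%, each searched on both strands. A match describes letters in this window and is not a measured binding site.

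The libraries held 2438672 to 8256526 counts each (median 3748649). The deposited library codes carry a letter, E or F, which no source used here explains. In vivo AKP, organoid AKP and control had 3 libraries of each letter (replicates 1 to 3 with E, 4 to 6 with F), mini-colon AKP #i, #ii and #iii were all E, and #iv and #v were all F. The replication genes differed by letter within a line. In organoid AKP 27 of the 39 genes were lower and 0 higher in F than in E libraries (median log2 difference -0.49), where 15.4% of all genes were called lower and 15.0% higher. Calls here and below are those of edgeR's quasi-likelihood test at a Benjamini-Hochberg adjusted p under 0.05 over all tested genes. In in vivo AKP 21 were lower and 2 higher (median -0.39), beside 21.6% lower and 25.5% higher among all genes. In control 1 was lower and 8 were higher (median 0.21), beside 8.51% lower and 13.6% higher. Fits within a letter therefore stand beside the pooled ones. Where 1 line is all E and another all F, letter and line cannot be told apart.

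**Figure D1:**
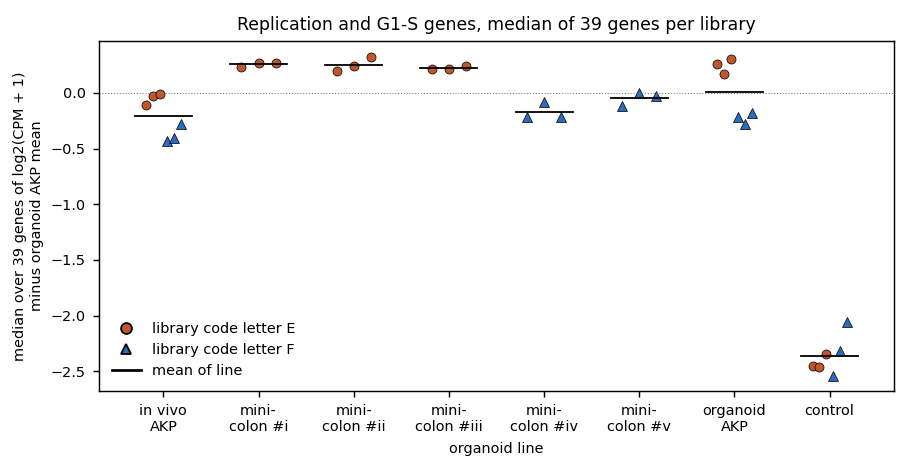
Median over the 39 genes of log2(CPM + 1) minus the organoid AKP mean, 1 point per library, by line, with circles for letter E, triangles for letter F and a bar for the mean of the line. Control libraries lie between -2.54 and -2.06, below every AKP library, and in organoid AKP the E libraries (0.17 to 0.30) lie above the F libraries (-0.28 to -0.18).

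Setting AKP organoids against control compares recombined with non-induced organoids. The study reports that healthy organoids did not grow in basal medium. Recombination of the alleles and growth in this medium therefore cannot be told apart here. All 39 genes were higher in organoid AKP (37.3% of all genes called higher), with a median log2 fold change of 2.48, against 0.06 over all genes. In in vivo AKP 38 of 39 were higher (38.8% of all genes), with a median of 2.25, against 0.08 over all genes. Libraries did not overlap for 36 genes in in vivo AKP (24.9% of all genes) and 38 in organoid AKP (26.1%). Over the 39 genes the level in in vivo AKP was 0.814 to 9.52 times that of control (median 4.77), and in organoid AKP 1.45 to 9.97 times (median 5.58). Both comparisons use the same control libraries. Within letter E 39 and 39 genes were higher in in vivo AKP and organoid AKP (36.2% and 34.8% of all genes) and 0 lower in each (34.3% and 32.8%), and within letter F 37 and 38 (36.7% and 35.7%), with 1 lower in each (35% and 36.7%).

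Mcm2, a subunit of the MCM helicase, had 85.5, 100 and 112 CPM (lowest, median and highest library) in in vivo AKP. The same values were 101, 124 and 134 CPM for organoid AKP, and 14.0, 15.5 and 29.0 CPM for control. No library of either AKP line overlapped the controls, at log2 fold changes of 2.39 ± 0.13 (SE) for in vivo AKP and 2.69 ± 0.13 for organoid AKP. Over the 6 MCM subunits the log2 fold change ran from 1.96 for Mcm6 to 3.01 for Mcm3 in in vivo AKP and from 2.27 for Mcm6 to 3.14 for Mcm3 in organoid AKP. Cdt1, which brings MCM to origins, had a lowest, median and highest library of 104, 129.8 and 149.7 CPM in in vivo AKP. Organoid AKP had 152, 172 and 216 CPM, and control had 15.0, 19.1 and 22.0 CPM. These libraries also separated, at 2.79 ± 0.12 and 3.24 ± 0.12 (adjusted p = 1.3e-20 and 3.7e-22, edgeR). Orc1, the largest subunit of the origin recognition complex, had 4.72, 9.32 and 13.4 CPM in in vivo AKP, 8.11, 11.5 and 19.5 CPM for organoid AKP and 1.56, 3.52 and 5.47 CPM for control (lowest, median and highest), so that in vivo AKP overlapped control. It rose by 1.35 ± 0.27 in in vivo AKP and 1.73 ± 0.26 in organoid AKP.

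Cdc45, which with GINS turns the loaded helicase on, showed the largest fold change of the 39 in organoid AKP, 9.97-fold when letters are pooled. Within E it was 22.5-fold, again the largest, and within F 5.94-fold, where Pole had the largest, 8.18-fold. Its lowest, median and highest library held 21.6, 32.0 and 38.1 CPM in in vivo AKP. Organoid AKP had 29.2, 39.8 and 51.4 CPM, and control had 0.767, 3.43 and 6.03 CPM. Pole, the catalytic subunit of the leading-strand polymerase, was 9.52-fold higher in in vivo AKP and 9.30-fold higher in organoid AKP. Pcna, the sliding clamp, rose by 1.55 ± 0.12 and 1.58 ± 0.12 on the log2 scale, and Rfc4, a subunit of its loader, by 2.89 ± 0.21 and 3.13 ± 0.21. The flap endonuclease Fen1 rose by 2.15 in in vivo AKP and 2.48 in organoid AKP, and the ligase Lig1 by 2.44 and 2.48. Over the 4 nucleotide supply genes the log2 fold change ran from 1.81 for Rrm2 to 2.50 for Rrm1 in in vivo AKP and from 2.35 for Tyms to 2.57 for Rrm1 in organoid AKP.

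The cyclins had smaller fold changes than the helicase, with role medians of 1.51 and 1.56 for the 4 cyclins and 2.40 and 2.7 for the MCM helicase in in vivo AKP and organoid AKP, a difference that was not tested. The D-type cyclins Ccnd1 and Ccnd2, which respond to growth signals, had the highest CPM of the 39 in control. Ccnd2 had 1462 to 1643 CPM in in vivo AKP, 1578 to 1878 CPM among organoid AKP libraries and 524 to 846 CPM among controls, at 1.16 ± 0.08 and 1.33 ± 0.08. Ccnd1 rose by 0.52 ± 0.13 in in vivo AKP and 0.80 ± 0.13 in organoid AKP. In in vivo AKP the Ccnd1 difference was 1.08 ± 0.09 within letter E and -0.14 ± 0.10 within letter F (adjusted p = 0.23, edgeR). The E-type cyclins Ccne1 and Ccne2, partners of CDK2, rose by 1.85 and 2.56 in in vivo AKP and by 1.80 and 2.55 in organoid AKP.

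E2f2, an activator E2F, was the one member not called in in vivo AKP against control (-0.30 ± 0.23, adjusted p = 0.25, edgeR). It had 28.8, 23.6 and 22.7 CPM in the E libraries and 11.9, 11.6 and 17.9 CPM in the F libraries of in vivo AKP. Organoid AKP had 43.9, 53.3 and 42.3 CPM in E and 27.1, 23.6 and 24.5 CPM in F libraries, and control had 15.0, 18.2 and 14.8 CPM in E and 27.1, 31.4 and 33.6 CPM in F libraries. The order of the lines turned with the letter. Within E the log2 fold change against control was 0.63 ± 0.19 in in vivo AKP and 1.50 ± 0.18 in organoid AKP, and within F it was -1.19 ± 0.15 and -0.36 ± 0.13. The interaction of letter and line for organoid AKP against control was -1.78 (adjusted p = 3.1e-08, edgeR). The pooled value of 0.54 ± 0.22 in organoid AKP (adjusted p = 0.033, edgeR) was lost without any 1 of control replicates 1 to 4 or organoid AKP replicates 1 to 3, at adjusted p from 0.071 to 0.21.

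These are bulk libraries, in which fewer cells of a type and less RNA per cell cannot be told apart. The sum of markers of differentiated colon cells moved with the comparisons against control. The 13 markers summed to 11.3 to 29.8 CPM in in vivo AKP, 8.72 to 57.5 CPM for organoid AKP, with Car4 and Neurod1 at 0, and 8915 to 11924 CPM for control. Their part in the difference was not tested. The 8 epithelial markers summed to 3112 to 3449 CPM in in vivo AKP, with Cdx1 at 0, to 3073 to 3556 CPM for organoid AKP and to 9371 to 10787 CPM for control. The largest part of the control sum was Krt19, at 4063 to 5563 CPM. Krt19, Krt8, Epcam, Vil1, Cdx1 and Cdx2 were lower in every library of both AKP lines than in any control library. Krt18 overlapped control in both lines, and Cdh1 did so in in vivo AKP. The 8 immune markers summed to 12.3 to 22.8, 10.7 to 17.6 and 27.3 to 48.6 CPM in the same lines, with Adgre1 at 0 in each. The 10 fibroblast and muscle markers summed to 38.6 to 276 CPM in in vivo AKP, to 4.43 to 22.7 CPM for organoid AKP and to 0.350 to 2.30 CPM for control. Nearly all of the sums in the AKP lines was Vim, an intermediate filament gene, at 37.4 to 275 CPM in in vivo AKP and 4.09 to 21.7 CPM for organoid AKP. None of the other 9 markers passed 1.15 CPM in any library of these lines, and Col3a1, Dcn, Lum and Des were at 0 in in vivo AKP.

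**Figure D2:**
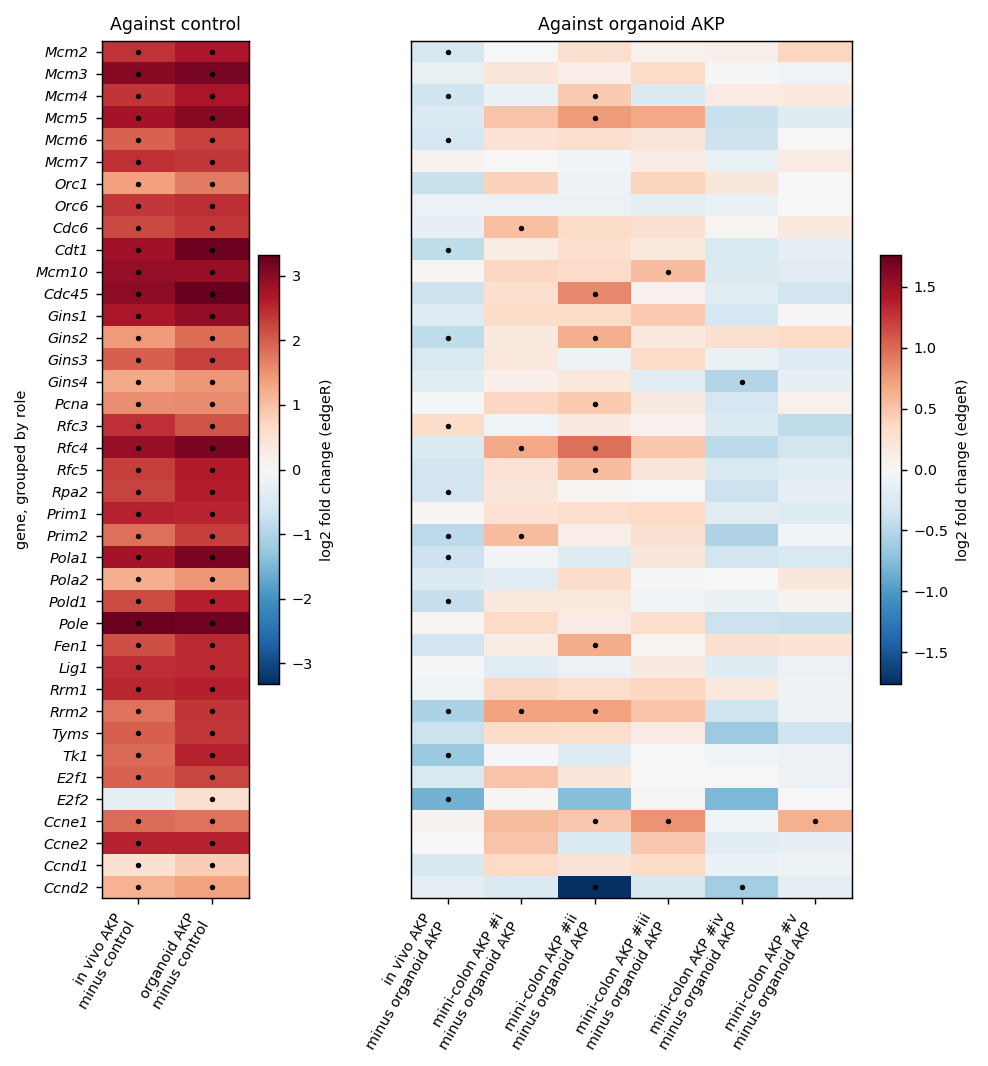
Log2 fold change (edgeR) of each of the 39 genes, grouped by role from top to bottom, against control on the left and against organoid AKP on the right, each with its own colour scale, with a dot where the adjusted p is under 0.05. Against control every cell but that of E2f2 in in vivo AKP is dotted, and against organoid AKP dots are few, with Ccnd2 in mini-colon AKP #ii the darkest cell at -1.76.

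In vivo AKP and organoid AKP carry the same alleles but arose in a mouse colon and in conventional organoid culture. In in vivo AKP 12 of the 39 genes were lower (17% of all genes) and 1 was higher (17.4%), with a median log2 fold change of -0.26, against 0.00 over all genes. Within letter E 16 were lower (13.9% of all genes) and 0 higher (13.9%), and within letter F 12 were lower (24.5%) and 2 higher (25.8%). By role, 3 of 6 MCM subunits, 3 of 6 primase and polymerase genes, 2 of 4 nucleotide supply genes and 0 of 4 cyclins were lower. Cdt1, E2f2, Pola1, Pold1 and Tk1 were called lower in both of these separate sets of libraries. The pooled count of lower genes was 7, 7 and 5 without organoid AKP replicate 1, 2 and 3. In a fit of these 12 libraries alone 4 of the 39 genes were lower, beside 11.8% of all genes. Of the fibroblast and muscle markers, Vim did not overlap between these lines, and in in vivo AKP it was 202 to 275 CPM in F and 37.4 to 42.3 CPM in E libraries, while collagen genes, Dcn and Lum were at or near 0 in both lines.

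Tk1, the salvage enzyme that phosphorylates thymidine, had 120.3, 121, 109, 103, 99.6 and 118 CPM in the 6 in vivo AKP libraries, against 162, 167, 209, 171, 176 and 174 CPM in organoid AKP. Every in vivo AKP library lay below every organoid AKP library. The log2 fold change was -0.66 ± 0.14 (adjusted p = 2.3e-04, edgeR), -0.61 ± 0.12 within E and -0.68 ± 0.10 within F. The 3′ end of Tk1 overlaps the gene Syngr2 on the other strand, and the strand setting of the counts is not given in the sources used here, so its counts are uncertain. Cdt1 had 149, 149.5, 149.7, 107, 104 and 110.2 CPM, against 192, 189.8, 216, 154, 152 and 154 CPM for organoid AKP. Its libraries did not overlap either, at -0.45 ± 0.10 (adjusted p = 7.9e-04, edgeR). Pold1, the catalytic subunit of the lagging-strand polymerase, was the remaining gene of this kind, at 35.1 ± 2.72 CPM for in vivo AKP and 46.4 ± 6.56 CPM for organoid AKP (SD, n = 6 each, log2 fold change -0.41 ± 0.11). Libraries separated in this direction for 3 of the 39 genes, beside 6.99% of all genes.

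Pola1, the catalytic subunit of the polymerase that extends RNA primers, differed by -0.36 ± 0.10, and E2f2 by -0.84 ± 0.23. Rrm2, the small subunit of ribonucleotide reductase, averaged 89.7 ± 17.3 CPM for in vivo AKP and 134 ± 52.2 CPM for organoid AKP (SD, n = 6 each). This was a log2 fold change of -0.56 ± 0.18, a call lost without organoid AKP replicate 1, 2 or 3, and it was -0.78 ± 0.12 within E and -0.20 ± 0.12 within F. Rfc3, a clamp loader subunit, was the single gene called higher, at 78.7 ± 11.4 CPM for in vivo AKP and 63.0 ± 12.8 CPM for organoid AKP. Its log2 fold change of 0.33 ± 0.13 (adjusted p = 0.049, edgeR) was -0.03 ± 0.13 within E and 0.73 ± 0.10 within F, and the call was lost without any 1 of organoid AKP replicates 4 to 6 or in vivo AKP replicates 1, 2, 4, 5 and 6. Gins2, a GINS subunit called lower when pooled, was -0.96 ± 0.14 within E and 0.12 ± 0.13 within F. The difference between letters passed the test for 7 of the 39 genes (20.8% of all genes).

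The 5 mini-colon lines differed among themselves in 23 of the 39 genes by an edgeR F test (46.7% of all genes), and in 13 with a term for the letter (29.6%). That term takes the letter difference to be the same in every line, which the lines with both letters did not show. Ccnd2, Rfc4, Cdc45 and Prim2 had the smallest p. Against organoid AKP, mini-colon AKP #i had 4 genes higher (3.1% of all genes) and 0 lower (4.05%), with 12 at an unadjusted p under 0.05 (26.5% of all genes). In #ii 10 were higher (11.9%) and 1 lower (12.7%). In #iii 2 were higher (7.45%) and 0 lower (8.79%), with 12 at an unadjusted p under 0.05 (31.8%). In #iv 0 were higher (2.55%) and 2 lower (2.35%), with 11 at that level (18.2%). In #v 1 was higher (5.11%) and 0 lower (5.48%), with 5 at that level (23.6%). The medians over the 39 genes were 0.25, 0.28, 0.17, -0.20 and -0.09 in #i to #v, against -0.04, -0.03, -0.02, -0.02 and 0.00 over all genes. These 5 comparisons share the organoid AKP libraries.

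Set against the organoid AKP libraries of their own letter, the medians were 0.00 in #i, 0.05 in #ii, -0.03 in #iii, 0.00 in #iv and 0.23 in #v. In #i 1 gene was higher (3.56% of all genes) and 2 were lower (4.45%). In #ii the counts were 5 (11.6%) and 5 (12.1%), and in #iii 2 (7.69%) and 3 (8.58%). In #iv they were 4 (6.53%) and 2 (6.69%), and in #v 13 (14.5%) and 0 (13.7%).

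**Figure D3:**
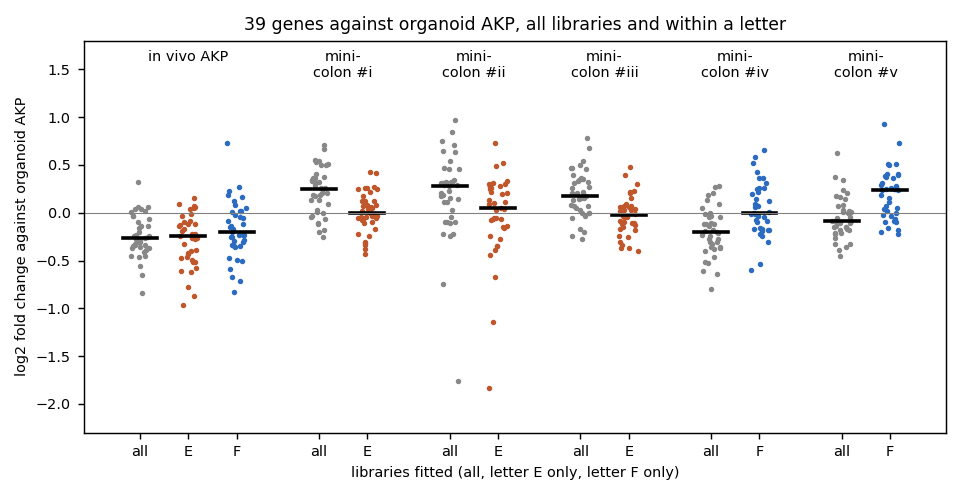
Log2 fold changes against organoid AKP of the 39 genes, 1 point per gene, for in vivo AKP and each mini-colon AKP line, fitted with all libraries (grey), E libraries (orange) or F libraries (blue), with a bar at the median. The E medians of mini-colon AKP #i, #ii and #iii lie between -0.03 and 0.05, and the F median of #v lies at 0.23.

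Ccnd2 in mini-colon AKP #ii had the smallest p among the differences from organoid AKP. It had 495, 501 and 509 CPM in #ii, against 1618, 1875, 1878, 1578, 1675 and 1579 CPM for organoid AKP. The #ii libraries lay below those of every other line, the controls (524 to 846 CPM) included. The log2 fold change was -1.76 ± 0.11 (adjusted p = 4.7e-14, edgeR) and -1.84 ± 0.09 within E. In #iv Ccnd2 had 1065, 1171 and 1106 CPM, also below every organoid AKP library, at -0.61 ± 0.10 pooled and -0.54 ± 0.07 within F. Its 3′ end overlaps the gene Gm43126 on the other strand, so its counts are uncertain.

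Ccne1, the cyclin that with CDK2 carries cells into S phase, had 38.0, 35.6 and 34.7 CPM in #i, 27.9, 32.9 and 41.0 CPM in #ii and 45.9, 39.7 and 41.7 CPM in #iii. It had 22.8, 27.9 and 20.9 CPM in #iv and 39.5, 38.1 and 36.3 CPM in #v. Organoid AKP had 29.3, 27.3 and 33.2 CPM in E and 20.5, 15.0 and 24.7 CPM in F libraries. The libraries of #i, #iii and #v lay above every organoid AKP library. It was called higher in #ii (0.47 ± 0.18), #iii (0.78 ± 0.18) and #v (0.62 ± 0.17). Within its letter it was 0.19 ± 0.16 in #ii (adjusted p = 0.41), 0.48 ± 0.16 in #iii (adjusted p = 0.029) and 0.93 ± 0.14 in #v (adjusted p = 1.2e-06, edgeR). The pooled call in #v was lost without any 1 of its 3 libraries, and that in #ii without organoid AKP replicate 4, 5 or 6 or #ii replicate 2 or 3, at adjusted p up to 0.32 (edgeR).

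Rfc4 had 51.8, 52.3 and 60.3 CPM in #i and 82.5, 55.5 and 64.6 CPM in #ii, against 46.0, 34.5, 41.3, 29.0, 28.1 and 30.0 CPM for organoid AKP. Both mini-colon lines lay above all organoid AKP libraries. In #ii it was 0.97 ± 0.20 (adjusted p = 4.8e-04, edgeR) and 0.73 ± 0.14 within E, and in #i it was 0.67 ± 0.20 pooled and 0.43 ± 0.15 within E (adjusted p = 0.064, edgeR). Its 3′ end overlaps the gene Eif4a2 on the other strand, so its counts are uncertain. Cdc45 had 74.7, 66.3 and 70.3 CPM in #ii, against 29.2, 39.8 and 51.4 CPM (lowest, median and highest) for organoid AKP, with no overlap. Its log2 fold change was 0.84 ± 0.19 pooled and 0.52 ± 0.13 within E. Fen1 was 0.65 ± 0.16 in #ii and 0.48 ± 0.14 within E.

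Within E the genes higher in #ii were Mcm5, Cdc45, Rfc4, Fen1 and Ccnd1, and those lower were Pola1, Lig1, E2f2, Ccne2 and Ccnd2, named after their values were seen. Without #ii replicate 1 or 3 the pooled higher genes were 6 and 6, and without organoid AKP replicate 4, 5 or 6 the lower genes were 2, 2 and 2. In #i the pooled calls were Cdc6 (0.54), the primase subunit Prim2 (0.54), Rrm2 (0.71) and Rfc4. With any 1 of the 3 #i libraries or organoid AKP replicate 4, 5 or 6 left out, 0 members were called higher in #i, and 8 and 7 were without organoid AKP replicate 1 and 3. Within E the higher gene in #i was Ccnd1 (0.41 ± 0.09), and the lower genes were Lig1 (-0.43 ± 0.10) and Ccnd2 (-0.33 ± 0.08).

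In #iii, Mcm10, which helps to activate the helicase, had 93.4, 85.0 and 97.5 CPM, against 50.2 to 80.7 CPM for organoid AKP, with no overlap. It was 0.54 ± 0.16 pooled and 0.30 ± 0.11 within E (adjusted p = 0.071, edgeR). Without organoid AKP replicate 1 or 3 the higher genes in #iii were 6 and 5, without organoid AKP replicate 5 or 6 or #iii replicate 1 or 3 there was 1, and 1 gene was lower without organoid AKP replicate 1. In #iv, the GINS subunit Gins4 had 29.5, 23.3 and 23.0 CPM, against 25.9, 38.7, 37.2, 36.1, 41.0 and 37.1 CPM for organoid AKP, overlapping only through the lowest organoid AKP library. It was -0.52 ± 0.13 pooled and -0.60 ± 0.13 within F. The lower genes in #iv were 4 without organoid AKP replicate 5 and 1 without #iv replicate 2 or 3.

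In #v the 13 genes higher within F were Mcm2, Mcm4, Mcm6, Mcm7, Cdc6, Gins2, Pcna, Fen1, Rrm1, Rrm2, E2f2, Ccne1 and Ccne2. They span the helicase, its loading and activation, the clamp, nucleotide supply and the cyclins. Gins2 was 0.73 ± 0.12, Cdc6 0.51 ± 0.12, E2f2 0.51 ± 0.13 and Rrm2 0.50 ± 0.12. With all organoid AKP libraries Ccne1 alone was called, and without organoid AKP replicate 5 or 6 there was 1 lower gene. Vim was at 39.9 to 117 CPM in #v, and none of the other 9 fibroblast and muscle markers passed 0.859 CPM there.

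**Figure D4:**
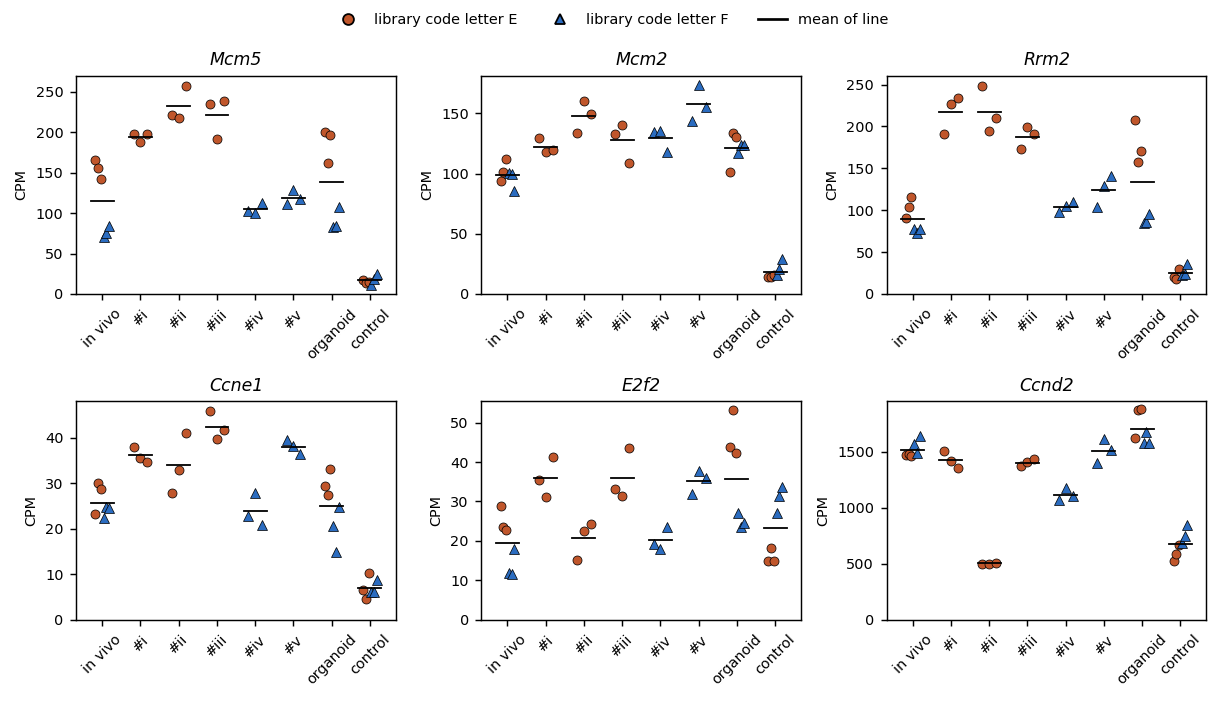
CPM per library of Mcm5, Mcm2, Rrm2, Ccne1, E2f2 and Ccnd2 by line, with circles for letter E, triangles for letter F and a bar for the mean of the line, each vertical axis starting at 0. In organoid AKP the F and E libraries of Mcm5 (91.4 and 187 CPM on average) lie apart while those of Mcm2 (122 and 122 CPM) do not, and the #ii libraries of Ccnd2 lie below those of all other lines.

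Mini-colon AKP #v and #i, from crypt-enriched and lumen-enriched tumours, differed in 9 genes that were lower in #v (11.9% of all genes) and 0 that were higher (12.5%), with a median of -0.30, against 0.03 over all genes. The genes were Mcm10, Cdc45, Rfc4, Prim2, Pole, Rrm1, Rrm2, Tyms and E2f1. Rfc4 had 22.6, 29.1 and 29.8 CPM in #v, against 51.8, 52.3 and 60.3 CPM in #i, with no overlap, at a log2 fold change of -0.996 (adjusted p = 0.0031, edgeR). All #v libraries are F and all #i libraries E, so line and letter cannot be told apart here. With a letter term, estimated from the lines that have both letters, 0 were lower and 1 was higher. That term is 1 value per gene for all lines. The median letter difference of the members was -0.39 in in vivo AKP, -0.49 in organoid AKP and 0.21 in control, so a shared term need not fit the mini-colon lines. The lower genes were 3, 2 and 2 without #i replicate 1, 2 and 3, and 3, 1 and 5 without #v replicate 1, 2 and 3.

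Further genes of these steps were counted from lists that hold none of the 39 members. In organoid AKP against control 37.3% of all genes were called higher and 33.6% lower. In organoid AKP against control, 14 of 16 origin licensing and firing genes were higher and 0 lower, among them Dbf4 (2.80), the activating subunit of the Cdc7 kinase. Of 22 replisome genes 21 were higher and 1 lower, the small polymerase subunit Pold4 (-0.96). Of 18 nucleotide supply genes 16 were higher and 0 lower, and of 20 chromatin assembly and S phase repair genes 20 were higher and 0 lower. All 20 G2 and mitosis genes were higher, with a median of 2.96, such as the spindle factor Tpx2 (3.30). Of 20 E2F, RB and G1 kinase genes 14 were higher and 4 lower, namely Rb1 (-1.73), E2f5 (-1.10), Rbl2 (-0.85) and Cdk6 (-0.47). In in vivo AKP against control 14 licensing, 20 replisome, 17 nucleotide supply, 20 chromatin and repair and 20 mitosis genes were higher (38.8% of all genes).

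In in vivo AKP against organoid AKP 17% of all genes were called lower and 17.4% higher. Of 20 mitosis genes 16 were lower and 0 higher, with a median of -0.51, such as the checkpoint kinase Bub1 (-0.83). In the same comparison, with list sizes as given above, licensing genes were lower in 7 and higher in 1 cases. Replisome genes were so in 7 and 0, nucleotide supply genes in 7 and 0, and chromatin and repair genes in 7 and 1. Against organoid AKP, 2, 7, 5, 0 and 5 of the mitosis genes were lower in mini-colon AKP #i to #v and 0 higher in any. The shares of all genes called lower were 4.05%, 12.7%, 8.79%, 2.35% and 5.48%. Nucleotide supply genes were higher in 5, 10, 4, 0 and 1 of 18 cases, beside 3.1%, 11.9%, 7.45%, 2.55% and 5.11% of all genes. In #ii these included the purine enzyme Gart (1.03), the pyrimidine enzyme Umps (1.06) and the folate enzyme Mthfd1 (0.73). Gart had 228, 189 and 210 CPM in #ii. Organoid AKP had 139, 101 and 141 CPM in E and 82.1, 77.9 and 74.9 CPM in F libraries. The mini-colon counts of these lists use organoid AKP libraries of both letters, while #i to #iii are all E and #iv and #v all F. Letter and line are therefore not separated in them, and fits within a letter are not given for these lists.

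CDK inhibitors, which hold cells in G1, moved in different directions. Cdkn1a, a target of p53, averaged 130.4 ± 102 CPM for in vivo AKP, 156 ± 106 CPM for organoid AKP and 2311 ± 84.5 CPM for control (SD, n = 6 each), at log2 fold changes of -4.15 and -3.87 against control. It also differed by letter, with 222 CPM in F and 38.9 CPM in E libraries of in vivo AKP, and 251 and 62.3 CPM in those of organoid AKP. Mini-colon AKP #iii, all E, had 302 to 319 CPM of Cdkn1a. The #iii medians over the replication genes were 0.21 to 0.24, and those of the other E lines of mini-colon AKP 0.19 to 0.33. A link between Cdkn1a and these medians was not tested. Cdkn2a averaged 750.2 ± 28.3 CPM for in vivo AKP and 213 ± 18.9 CPM for organoid AKP (SD, n = 6 each), a log2 fold change of 1.82. In the mini-colon lines it was 0.49 in #i, 0.45 in #ii, -3.68 in #iii, -0.69 in #iv and -1.79 in #v against organoid AKP, all called. Its neighbour Cdkn2b was -3.52 in #iii and -2.30 in #v. Cdkn1c was 2.54 in in vivo AKP against organoid AKP, where Cdkn1b was 0.63, Cdkn2b 0.58 and Cdkn2c -0.67, all called.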

How the data were processed

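RNA-seq libraries (33) were made with the QuantSeq kit, a method that sequences the 3′ ends of transcripts. Per the study's methods and the labels, reads were aligned to GRCm39 with STAR and analysed in R 4.1.2 with edgeR and limma. The values deposited by the authors are raw counts per gene; counting tool, annotation and strand setting are not given in the sources used here. Identifiers without a name (611) held 6.85% of counts and stayed out of the named results.

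The counts were tested with edgeR 4.0.16 in R 4.3.3 (TMM scaling, robust quasi-likelihood fit, 1 coefficient per line over all 33 libraries, Benjamini-Hochberg over the 13606 genes tested, threshold 0.05). Alternatives used limma 3.58.1 and DESeq2 1.42.0, other filters, the letter, the replicate block and leaving out each library. Levels are TMM-scaled CPM, and SE is the size of the log2 fold change divided by the root of the F statistic. Pairs of libraries of a line were compared by chi-square per degree of freedom, which was at least 1.70, so each was counted as 1 library. This cannot tell separate cultures from separate preparations of 1 culture. The fit was tested on simulated data. Named members were up to 4 called genes per direction and comparison with the smallest p, calls against the main direction and 1 member per role, with up to 3 called genes per further list and any CDK inhibitor; other members were named after their values were seen. The members and lists were chosen with earlier results of these data known. Some items are not reported here.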

Additional observations from a re-analysis of the deposited data

Results flagged for a closer look

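In organoid AKP the lowest Gins4 library, replicate 1 at 25.9 CPM, stood apart from the other 5 (36.1 to 41.0 CPM). The highest Tk1 library of that line, replicate 3 at 209 CPM, stood above its other 5 (162 to 176 CPM). In all, 117 groups of 6 libraries were looked at in this way and 2 stood out, where chance alone flags about 1 in 20.

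The difference of in vivo AKP from organoid AKP itself differed between letters F and E for 7 of the 39 genes, where 20.8% of all genes passed. Of the 7, 5 had a higher and 2 a lower log2 fold change in F (edgeR interaction test). The difference of organoid AKP from control differed between letters for 17 of the 39, all with a lower value in F, where 14.7% of all genes passed. The smallest p among these were those of E2f2 (-1.78), Pcna (-1.03) and Cdc45 (-1.85).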

How the results depend on the processing

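The 39 and 38 genes higher against control in organoid AKP and in vivo AKP stayed within 37 to 39 in each alternative, with 1 lower within letter F in each. For in vivo AKP against organoid AKP, 0 were higher with no filter, within letter E or with only the lines compared, and 2 within letter F. With only the lines compared 4 were lower (11.8% of all genes). In #i, 2 were higher with no filter or only the lines compared, 0 with the letter term or the replicate block, and 1 higher and 2 lower within E. In #ii, 5 were higher within E, and the lower gene became 2 with DESeq2 size factors or the DESeq2 test, 3 with the block or letter term and 5 within E. In #iii, 6 were higher with limma-voom and 1 with the block or letter term, and 1 was lower with DESeq2 size factors, limma-voom, DESeq2 or only the lines compared, and 3 within E. In #iv, 1 was higher with the letter term and 4 within F, and 17 were lower with the block (11.1% of all genes) and 1 with only the lines compared. In #v, 2 were higher with limma-voom, DESeq2 or the block and 13 within F, and 10 were lower with the block (13.2% of all genes). For #v against #i, 1 was higher and 0 lower with the letter term (4.19% and 5.10% of all genes), and 3 higher and 23 lower with only the lines compared (25.1% and 24.6%). The F test gave 13 with the letter term (29.6% of all genes). The cause of these shifts was not tested.

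Leaving out 1 library gave 0 to 1 higher and 5 to 16 lower genes for in vivo AKP against organoid AKP, 0 to 8 higher in #i, 6 to 13 higher and 1 to 2 lower in #ii, 1 to 6 higher and 0 to 1 lower in #iii, 1 to 4 lower in #iv, 0 to 1 higher and 0 to 1 lower in #v, 1 to 5 lower for #v against #i, 38 to 39 for organoid AKP against control, 38 for in vivo AKP against control and 16 to 22 in the F test.

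Replicate numbers gave no clear pairing of the libraries. Correlations of same-numbered deviations ran from -0.10 to 0.38 over the comparisons. In #ii and #iii against organoid AKP all 3 libraries correlated best with their own number, at 0.057 to 0.083 and -0.003 to 0.12. In the other comparisons 0 to 2 of 3 or 1 to 3 of 6 did. The block sets F libraries of #iv and #v beside E libraries of organoid AKP. Within a letter, 4 called values reversed: Rfc3 (-0.035 within E) and Gins2 (0.12 within F) in in vivo AKP against organoid AKP, E2f2 (-0.36 within F) in organoid AKP against control, and Ccnd1 (-0.14 within F) in in vivo AKP against control. The 3′ counts carry no strand setting, so members with another gene over their 3′ end (Mcm7, Orc1, Gins2, Rfc4, Rfc5, Fen1, Tk1, Ccne2, Ccnd1 and Ccnd2) are uncertain.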
